A study of Mus musculus with 43 samples.

Results

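The proteasome subunits described here were 41 genes, chosen by name, out of the 55416 genes counted in each library. They comprised the 7 subunits of the alpha ring of the 20S core (Psma1 to Psma7), the 7 constitutive subunits of its beta ring (Psmb1 to Psmb7), the 3 inducible beta subunits of the immunoproteasome (Psmb8, Psmb9 and Psmb10), the 6 ATPases (Psmc1 to Psmc6) and 11 non-ATPase subunits of the 19S cap, the 3 chaperones that help assemble that cap (Psmd5, Psmd9 and Psmd10), and the 4 alternative activators (Psme1 to Psme4). Each name matched 1 gene identifier, and all 41 were counted in at least 1 library of each cell type.

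The study asked whether glia develop the same transcriptome in mice without lymphocytes. Oligodendrocytes, oligodendrocyte precursor cells (OPCs), astrocytes and microglia were purified from the cortex of male and female mice aged 3 months, and their bulk RNA was sequenced in 43 libraries from 6 littermate pairs. Rag2-/- mice (B6.Cg-Rag2tm1.1Cgn/J on C57BL/6J, bred from heterozygous parents) lack mature T and B cells in the whole body from birth, because Rag2 is needed to assemble antigen receptor genes. Their controls were Rag2+/- littermates in pairs 1, 2, 3 and 5 and Rag2+/+ littermates in pairs 4 and 6. Oligodendrocytes came from 4 control and 4 Rag2-/- mice (pairs 1, 3, 5 and 6), OPCs from 6 and 5 (no Rag2-/- library in pair 5), and astrocytes and microglia from 6 and 6 each. The members of a pair had the same sex except in pair 6, where the control was male and the Rag2-/- mouse female. Cells were taken from 1 suspension by immunopanning, in which they bind to antibody-coated dishes, first to CD45 for microglia, then to PDGFRα, GalC and HepaCAM. CD45 is also carried by peripheral macrophages, which can bind to the microglia dish. The paper states that perfusion before dissection reduced these cells.

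The proteasome is the protease complex that degrades proteins tagged with ubiquitin. Its 20S core is a barrel of alpha and beta rings, in which Psmb5, Psmb6 and Psmb7 carry the cutting activities, and the 19S cap binds, unfolds and feeds in the substrate. Interferon induces Psmb8, Psmb9 and Psmb10, which take the places of Psmb5, Psmb6 and Psmb7 in newly made cores, and this immunoproteasome produces peptides suited to presentation on MHC class I. Psme1 and Psme2 form the PA28αβ cap, which opens the core without ATP and is induced by interferon as well. Myeloid cells such as microglia are known for carrying immunoproteasome subunits.

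A library held between 6499417 and 23118497 counts on genes, with a median of 10447042. Mitochondrially encoded genes took 45.8% to 60.1% of the counts in oligodendrocytes and 6.75% to 11.7% in microglia. Levels are therefore given as CPM, the usual depth-scaled count, with the size of each library set by TMM, the trimmed mean of M-values of edgeR. Every marker of the 4 glial lists was highest in the cell type it is meant to mark. Rag2 had 0 counts in every Rag2-/- library and at most 4 counts in a control, so its level was too low to check the labels. Libraries of a cell type shared a sequencing lane, so a difference of type and one of lane cannot be told apart.

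Scaled by TMM, proteasome transcripts stood highest in microglia, while per length and nuclear-encoded total their sum in OPCs was as high. Against the mean of the other 3 cell types, 32 of the 41 members were called higher in microglia and 0 lower (edgeR quasi-likelihood test, Benjamini-Hochberg adjusted p under 0.05 over 21368 genes), where 35.6% of all genes were called higher and 38.6% lower. The median log2 difference was 0.54 over the members and -0.10 over all genes tested. The 3 immunoproteasome subunits led with a median of 3.98, followed by the 4 activators with 1.66. The alpha ring (5 of 7 called higher, median 0.49), the constitutive beta ring (6 of 7, 0.43), the 19S ATPases (6 of 6, 0.52) and the 19S non-ATPases (7 of 11, 0.42) lay together far lower. Per length and nuclear-encoded total, the alpha ring summed to 322 in microglia, 430 in OPCs and 339 in astrocytes. The constitutive beta ring summed to 385, 400 and 328, the ATPases to 371, 443 and 351, and the non-ATPases to 517, 616 and 467. Immunoproteasome subunits (135) and activators (206) stayed highest in microglia. Among the 3 assembly chaperones Psmd10 was called higher. The scaling sets part of this count, since under totals of nuclear-encoded genes without TMM 24 members were called higher in microglia and 0 lower, beside 30.4% of all genes called higher.

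**Figure D1:**
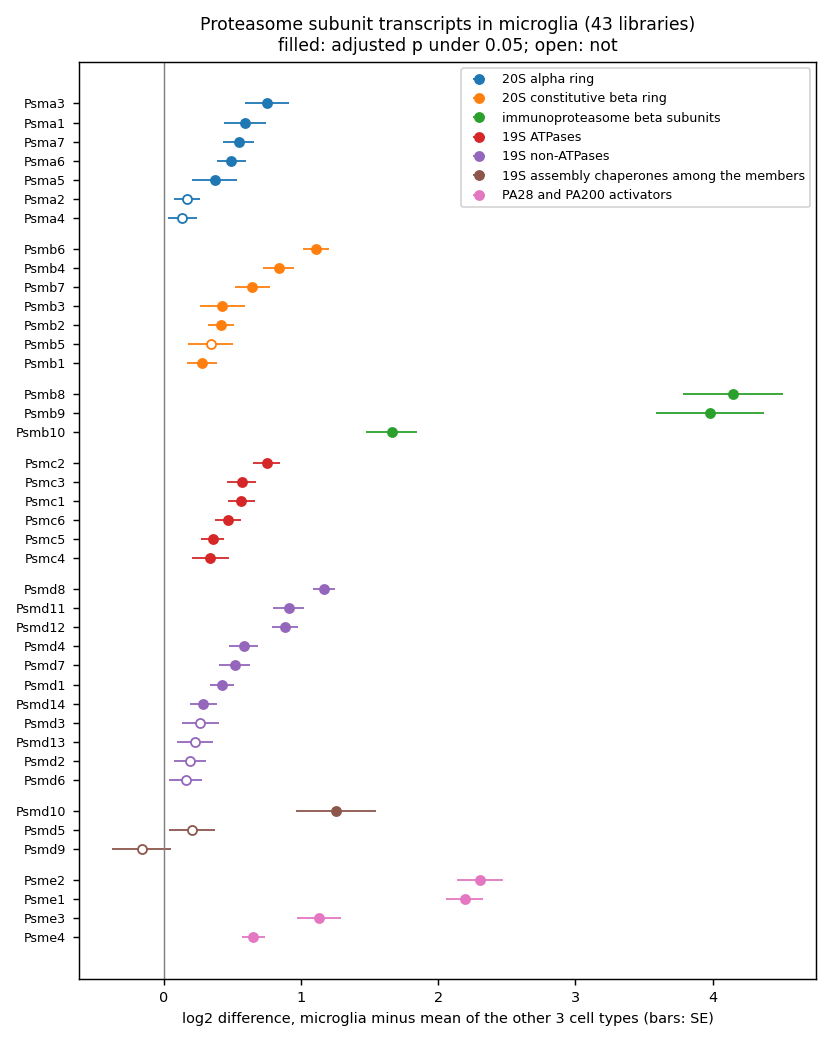
Log2 difference of each member between microglia and the mean of the other 3 cell types (horizontal axis, log2 scale, bars of 1 standard error, 43 libraries), grouped by role. Psmb8 at 4.15 and Psmb9 at 3.98 stand apart from the rest, then come Psme2, Psme1 and Psmb10, and most constitutive subunits lie between 0 and 1.

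Psmb8, the inducible subunit that replaces Psmb5, ranged from 20.2 to 39.5 CPM in the 12 microglia libraries, with a median of 28.4. It ranged from 0 to 11 CPM in 8 oligodendrocyte libraries (median 0.642), from 0.963 to 7.04 CPM in 11 OPC libraries (median 1.61) and from 0 to 1.86 CPM in 12 astrocyte libraries (median 1.18). No library of another cell type reached the lowest microglia library. The share of all genes that separate microglia from the other cell types in this way was not counted. The log2 difference was 4.15 (SE 0.36, edgeR adjusted p = 5.84e-14). Psmb9, the inducible counterpart of Psmb6, ranged from 12.7 to 43.3 CPM in microglia (median 22.9), from 0 to 9.28 in oligodendrocytes (median 1.14), from 0 to 6.12 in OPCs (median 2.23) and from 0 to 1.75 in astrocytes (median 0.758). Again the microglia libraries did not overlap with the others, and the log2 difference was 3.98 (SE 0.39, edgeR adjusted p = 2.2e-12). Psmb10, the counterpart of Psmb7, was present in every cell type. It ranged from 21.6 to 34.5 CPM in microglia (median 27.1), from 2.04 to 22.5 in oligodendrocytes (median 8.90), from 5.31 to 13.8 in OPCs (median 8.42) and from 4.43 to 12.8 in astrocytes (median 7.70). One oligodendrocyte library overlapped with microglia, and the log2 difference was 1.66 (SE 0.19, edgeR adjusted p = 7.46e-11).

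**Figure D2:**
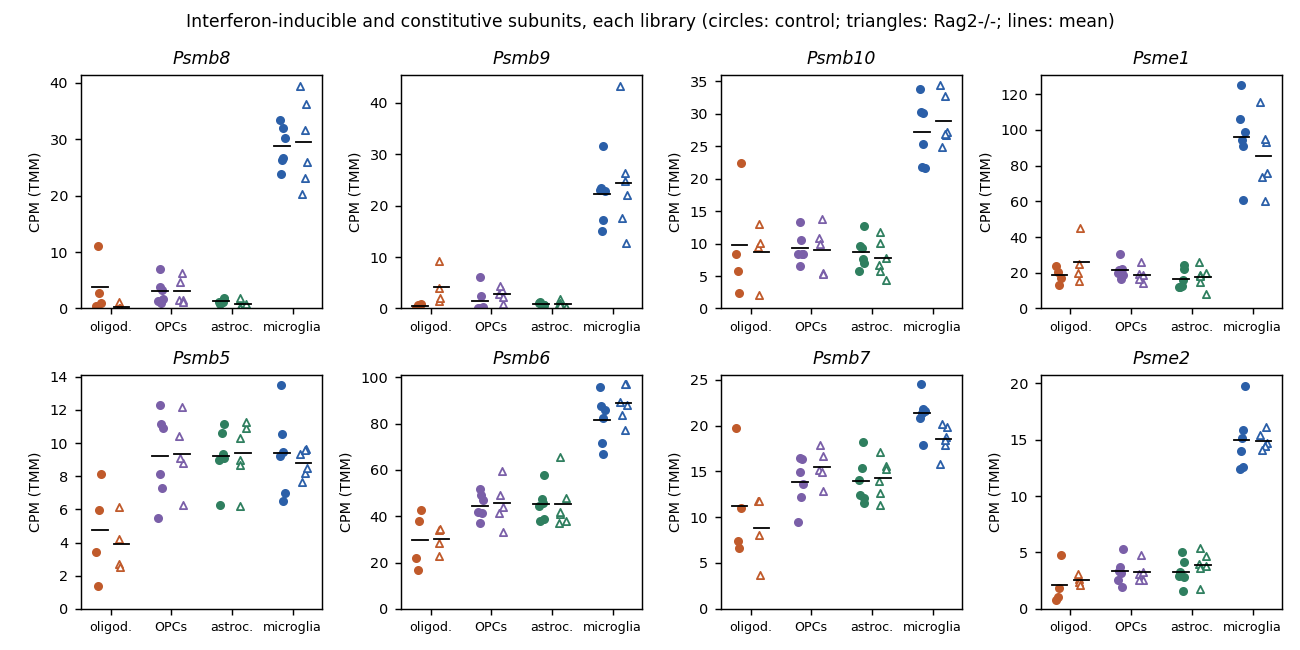
Level in CPM (vertical axis) of the inducible Psmb8, Psmb9, Psmb10, Psme1 and Psme2 and of the constitutive Psmb5, Psmb6 and Psmb7 in each of the 43 libraries, by cell type, with control and Rag2-/- libraries marked apart and a bar at the group mean. Microglia libraries lie above those of the other cell types without overlap for Psmb8, Psmb9, Psme1 and Psme2, and also for the constitutive Psmb6. Control and Rag2-/- libraries of microglia intermingle.

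Psmb8 and Psmb9 lie close together on mouse chromosome 17 within the MHC region, with Psmb8 at 34416690 to 34420428 on the plus strand and Psmb9 at 34400960 to 34406738 on the minus strand (GRCm39). Psmb10 lies apart from them on chromosome 8, at 106662362 to 106665077. The promoters of the linked pair, of Psme1 as an activator that shared their pattern, and of Psmd5 as the member of smallest p by genotype in oligodendrocytes are shown from RefSeq (GRCm38.p6), from 250 bases before to 50 bases after the start of the gene. Capitals mark matches on either strand to 3 motifs that were chosen after the values had been seen, namely the interferon-response word GAS (TTCNNNGAA), the ISRE core (TTTCNNTTT, read by interferon regulatory factors) and the antioxidant response element ARE (TGANNNNGC, read by NRF factors).
Psmb8 (chr17:34197945-34198244, plus strand): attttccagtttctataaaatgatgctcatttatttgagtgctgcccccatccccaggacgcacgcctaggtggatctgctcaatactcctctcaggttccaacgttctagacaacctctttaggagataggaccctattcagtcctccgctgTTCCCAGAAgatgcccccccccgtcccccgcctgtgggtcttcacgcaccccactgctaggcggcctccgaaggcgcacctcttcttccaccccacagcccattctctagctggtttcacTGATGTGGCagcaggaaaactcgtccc
Psmb9 (chr17:34187281-34187580, minus strand): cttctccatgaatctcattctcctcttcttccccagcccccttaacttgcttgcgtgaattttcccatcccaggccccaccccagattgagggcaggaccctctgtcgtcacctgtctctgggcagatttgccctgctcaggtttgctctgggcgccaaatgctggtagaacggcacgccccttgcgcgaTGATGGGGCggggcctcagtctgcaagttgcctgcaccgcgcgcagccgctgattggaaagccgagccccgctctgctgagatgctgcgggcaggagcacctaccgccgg
Psme1 (chr14:55578244-55578543, plus strand): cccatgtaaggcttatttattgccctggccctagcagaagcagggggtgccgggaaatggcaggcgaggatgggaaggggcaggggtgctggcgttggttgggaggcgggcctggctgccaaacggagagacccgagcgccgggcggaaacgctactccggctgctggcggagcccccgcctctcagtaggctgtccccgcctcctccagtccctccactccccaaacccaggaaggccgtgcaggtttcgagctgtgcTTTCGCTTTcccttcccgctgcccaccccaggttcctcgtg
Psmd5 (chr2:34870913-34871212, minus strand): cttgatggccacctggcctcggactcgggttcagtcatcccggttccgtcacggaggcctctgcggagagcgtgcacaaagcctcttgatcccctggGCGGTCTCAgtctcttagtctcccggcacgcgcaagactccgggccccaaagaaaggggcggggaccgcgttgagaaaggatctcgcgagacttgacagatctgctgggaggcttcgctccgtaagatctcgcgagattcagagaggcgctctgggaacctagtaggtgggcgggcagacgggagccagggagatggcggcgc

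The Psmb8 window held the GAS word TTCCCAGAA 97 bases before the start and an ARE word near its end. The Psme1 window held the ISRE core TTTCGCTTT 9 bases after the start, and the windows of Psmb9 and Psmd5 held an ARE word each. Of the 41 members 35 had a RefSeq promoter in the table, and 2 of these (Psmb8 and Psmd2) held GAS, 5 held the ISRE core and 20 held ARE, or 57.1%. Among 32851 promoters of the same length 8.30% held GAS, 10.6% the ISRE core and 41.3% ARE. Members were counted per gene, with a match in any of its promoters, and the background per promoter, so the units differ. No marked words overlapped in the windows shown. A match says only that the letters are present.

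The PA28 subunits also stood highest in microglia. Psme1 (PA28α) ranged from 59.9 to 125 CPM in microglia (median 93.7), from 13.2 to 45.1 in oligodendrocytes (median 20.2), from 14.1 to 30.7 in OPCs (median 19.4) and from 8.30 to 25.9 in astrocytes (median 16.9). Psme2 (PA28β) ranged from 12.4 to 19.8 CPM in microglia (median 14.6), from 0.758 to 4.78 in oligodendrocytes (median 2.23), from 1.90 to 5.31 in OPCs (median 3.21) and from 1.60 to 5.37 in astrocytes (median 3.74). Microglia libraries lay above all others for both genes. The log2 difference was 2.19 for Psme1 (SE 0.13, edgeR adjusted p = 3.81e-19) and 2.31 for Psme2 (SE 0.17, edgeR adjusted p = 1.38e-16). Psme1 and Psme2 sit next to each other on chromosome 14, at 55815190 to 55822034 on the plus strand and 55824895 to 55829173 on the minus strand. Exact copies elsewhere in the genome covered 62.6% of the 50-base windows of the Psme2 transcript, and reads with several places were counted on no gene. In addition 30.8% of the exonic length of Psme2 lay opposite Rnf31 and 39.6% of that of Psme1 opposite Emc9, and without a stated strand setting reads of these pairs cannot be told apart. Psme3 (PA28γ, the nuclear homolog) had a log2 difference of 1.13 (SE 0.16) and Psme4 (PA200) one of 0.65 (SE 0.09), both called.

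RNA of microglia was present in the libraries of the other cell types, and its amount stands beside the levels of the inducible members there. Taken as a share of its mean level in microglia, the median of the 8 microglia markers was 6.4% in oligodendrocytes (5.40% to 10.7% over the markers), 4.37% in OPCs (3.75% to 5.39%) and 1.60% in astrocytes (1.07% to 2.62%). Psmb8 stood at 6.96%, 10.5% and 3.54% of its microglia mean in these cell types and Psmb9 at 9.84%, 8.95% and 3.47%. The OPC and astrocyte values of both genes lay above the range of the markers, also with any 1 library left out. In oligodendrocytes both lay within it, but single libraries set these means. Psmb8 stood at 2.54% (0.739 CPM), below the range, without the control library of pair 6. Psmb9 came to 5.56% without the Rag2-/- library of pair 5 and to between 10.8% and 11.2%, above the range, without any 1 of the 4 controls. Psmb10, by contrast, stood at 32.9%, 32.8% and 29.4%, Psme1 at 24.7%, 22.5% and 18.8%, and Psme2 at 15.7%, 22.1% and 24%, above the highest marker in every one of the 3 cell types. The part of microglial RNA in the levels of Psmb8 and Psmb9 outside microglia was not tested. In bulk samples fewer cells of a type and less RNA per cell cannot be told apart.

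**Figure D3:**
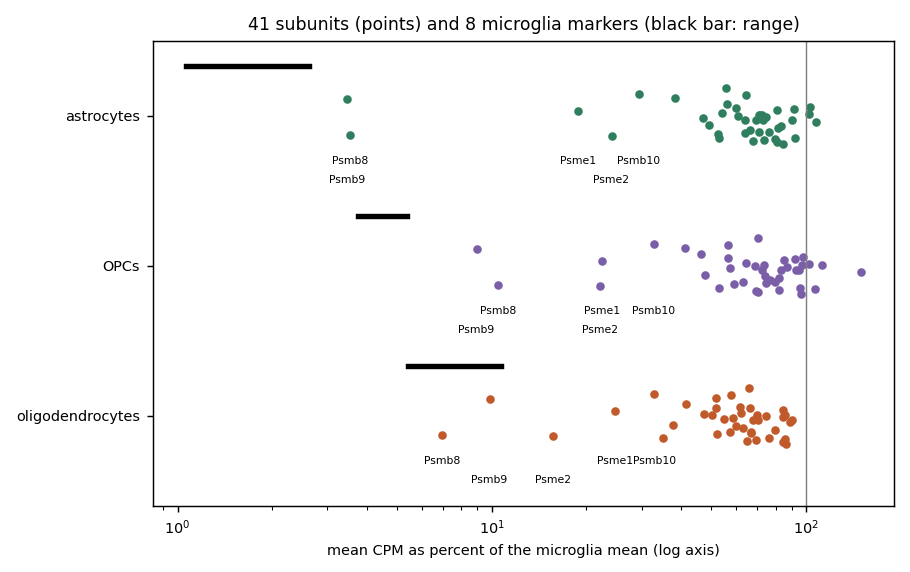
Mean level of each member in oligodendrocytes, OPCs and astrocytes as a percentage of its mean level in microglia (log axis), with the range over 8 microglia markers as a black bar. Psmb8 and Psmb9 lie nearest to the bar, Psmb10, Psme1 and Psme2 above them, and the constitutive subunits highest.

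Among the subunits that the inducible ones replace, Psmb6 was called higher in microglia and Psmb5 was not called. Psmb5, the chymotrypsin-like subunit, ranged from 6.50 to 13.5 CPM in microglia (median 9.30), from 5.50 to 12.3 in OPCs (median 9.10), from 6.21 to 11.3 in astrocytes (median 9.22) and from 1.38 to 8.14 in oligodendrocytes (median 3.82). Microglia, OPCs and astrocytes overlapped almost fully, and the log2 difference of microglia was 0.34 (edgeR adjusted p = 0.0527). Psmb6, the caspase-like subunit, ranged from 67.0 to 97.1 CPM in microglia (median 86.8), from 33.2 to 59.7 in OPCs (median 44.1), from 37.1 to 65.8 in astrocytes (median 43.1) and from 16.7 to 42.6 in oligodendrocytes (median 31.3). As for Psmb8 and Psmb9, the microglia libraries did not overlap with the others for Psmb6. Its log2 difference was 1.11 (SE 0.10, edgeR adjusted p = 3.29e-14), the largest of the constitutive beta ring. Psmb7, the trypsin-like subunit, ranged from 15.8 to 24.5 CPM in microglia (median 19.98), from 9.49 to 17.8 in OPCs (median 14.9), from 11.3 to 18.2 in astrocytes (median 14) and from 3.64 to 19.7 in oligodendrocytes (median 9.51). It had a log2 difference of 0.64 (SE 0.13), with overlap between the ranges. For Psmb7, 46.8% of the exonic length lay opposite Nek6, and without a stated strand setting reads of both cannot be told apart. Exact copies covered 50.4% of the windows of Psmb5.

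Scaled by TMM, Psmb4 (log2 difference 0.84, SE 0.11) and Psma3 (0.75, SE 0.16) stood highest in microglia in the remainder of the 20S core. Psma2 (0.17) and Psma4 (0.14) were not called. In the 19S cap all 6 ATPases, the ring that unfolds substrates, were called higher under TMM, from Psmc4 (0.34) to Psmc2 (0.75). Psmd8, a non-ATPase subunit of the lid, ranged from 65.1 to 88.4 CPM in microglia and reached at most 43.3 CPM elsewhere, with a log2 difference of 1.17 (SE 0.08, edgeR adjusted p = 1.7e-17). The lid subunits Psmd11 (0.91, SE 0.11) and Psmd12 (0.89, SE 0.10) followed, and Psmd14, the deubiquitinase of the lid, had 0.29 (SE 0.10). The scaffold Psmd2 (0.19) and the lid subunits Psmd3 (0.27), Psmd6 (0.16) and Psmd13 (0.23) were not called. Of the chaperones, Psmd10 (gankyrin) had a log2 difference of 1.25 (SE 0.29), and Psmd5 (0.21) and Psmd9 (-0.16) were not called.

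The other glial types differed less. In oligodendrocytes 0 members were called higher and 19 lower than the mean of the other types, against 25.5% and 23.7% of all genes. Psmb8 had a log2 difference of -1.46 (SE 0.52), with a mean of 2.03 CPM in oligodendrocytes, 3.04 in OPCs, 1.03 CPM for astrocytes and 29.1 in microglia. It was -2.69 without control mouse 6, whose library held 11 CPM, and its call was lost without control mouse 3. In controls alone the difference was -0.53 and not called, and in Rag2-/- libraries alone it was -3.88. Psme2 had -1.27 (SE 0.23), with means of 2.34, 3.29, 3.59 and 14.9 CPM in the same order. Psmb5 had -1.11 (SE 0.21), with means of 4.30, 9.27, 9.32 and 9.10 CPM, so that for this subunit oligodendrocytes stood below all 3 other types. The median over the members was -0.34.

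In OPCs 2 members were called higher and 6 lower, against 28.5% and 15.8% of all genes, and this direction depended on the scaling, since under nuclear-encoded totals without TMM 23 were called higher and 0 lower beside 46.2% of all genes called higher. The members called higher were the chaperones Psmd9 (log2 difference 0.62, SE 0.21; means of 14.7 CPM in OPCs and 8.74, 10.5 and 9.83 CPM in oligodendrocytes, astrocytes and microglia) and Psmd5 (0.43, SE 0.17). With the mouse as a block 5 members were called higher in OPCs. Both calls were lost when control mouse 2 or Rag2-/- mouse 3 or 4 was left out, each leaving 0 members called higher. Without control mouse 1, 3, 4 or 5 or Rag2-/- mouse 2, 5 or 6 there was 1 such call. Psme1 (-0.67, SE 0.16), Psme2 (-0.61, SE 0.19) and Psmc2 (-0.34, SE 0.11) were the lowest of those called lower, and Psmc2 stood at 0.0261 under nuclear-encoded totals. Psmc2 had means of 38.1 CPM in OPCs, 38.7 in oligodendrocytes, 43.4 in astrocytes and 67.3 in microglia.

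In astrocytes 1 member was called higher and 14 lower, against 26.7% and 28.6% of all genes. Psmb5 was the one called higher (0.40, SE 0.16), and its call was lost without control mouse 6 or without Rag2-/- mouse 6. Psmb9 (-2.47, SE 0.51), Psmb8 (-2.37, SE 0.45) and Psme1 (-1.02, SE 0.15) were the lowest. The number called lower was 9 without control mouse 2, 3 or 4 or Rag2-/- mouse 1, 3, 4 or 5. Psmb9 had means of 0.808 CPM in astrocytes, 2.29 in oligodendrocytes, 2.09 in OPCs and 23.3 in microglia, and Psme1 had 17.1, 22.4, 20.4 and 90.8 CPM. These contrasts set each type against a mean that contains microglia.

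To compare genes with each other, counts were divided by exonic length and scaled to the same sum over nuclear-encoded genes in every library, as for TPM. On this scale the ratio of Psmb8 to Psmb5 was 1.75 ± 0.491 in microglia (SD, n = 12), 0.169 ± 0.0963 in OPCs (SD, n = 11) and 0.0577 ± 0.0351 in astrocytes (SD, n = 12). In oligodendrocytes it was 0.588 ± 1.46 (SD, n = 8), a mean that rests on the control library of pair 6 with a ratio of 4.20. Across microglia libraries the ratio ran from 0.927 to 2.58, and 11 of the 12 lay above 1. Since copies covered 50.4% of the windows of Psmb5 and 0% of those of Psmb8, the counts of Psmb5 may be too low and this ratio too high, and its side of 1 is not settled. The ratio of Psmb9 to Psmb6 was 0.158 ± 0.0528 in microglia (SD, n = 12), 0.0254 in OPCs, 0.0103 in astrocytes and 0.0453 ± 0.0621 in oligodendrocytes (SD, n = 8). The ratio of Psmb10 to Psmb7 was 4.98 ± 1.14 in microglia (SD, n = 12), 2.24 ± 0.736 in OPCs (SD, n = 11) and 2.08 ± 0.776 in astrocytes (SD, n = 12). In oligodendrocytes it was 3.72 ± 3.11 (SD, n = 8), from 0.881 to 9.63, a range that spans that of microglia. With the length of the longest coding transcript the Psmb10 to Psmb7 ratio of microglia was 1.24 and those of OPCs, astrocytes and oligodendrocytes were 0.558, 0.519 and 0.927, on the other side of 1.

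Summed over the 41 members on the same per-length scale, OPCs held 2123 ± 247 (SD, n = 11), microglia 1972 ± 234 (SD, n = 12), astrocytes 1654 ± 123 (SD, n = 12) and oligodendrocytes 1232 ± 172 (SD, n = 8). OPCs and microglia did not differ beyond their spread, and astrocytes and oligodendrocytes came below them by mean. The order of the first pair turned with the scaling, since the sum of CPM was 1911 ± 152 in microglia (SD, n = 12) and 1282 ± 103 in OPCs (SD, n = 11), beside 1203 ± 80.5 in astrocytes (SD, n = 12) and 1126 ± 106 in oligodendrocytes (SD, n = 8). By mean, microglia thus stood above astrocytes and oligodendrocytes on both scales. Per length, however, the libraries of microglia (from 1683) and astrocytes (up to 1889) overlapped. The alpha ring alone was lower by mean in microglia (322) than in astrocytes (339) on that scale.

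Genes not counted among the members gave a further comparison in microglia. Those listed for assembly and regulation include a subunit of the complex, Psma8. Of 22 genes for assembly and regulation that were tested, 8 were called higher and 2 lower, with a median of 0.19. Over all genes 35.6% were called higher and 38.6% lower, so the 8 called higher lie near the share of all genes. Psma8, the germ-cell alpha subunit, had a log2 difference of 3.23 and Zfand5, a proteasome-binding zinc finger protein, one of 1.49, while Ubqln2, a ubiquitin shuttle, had -1.24 and Ecpas, a proteasome adaptor, -0.18. Pomp, the maturation factor that builds new 20S cores, had 0.92. Of 9 genes of interferon response and peptide loading, 8 were called higher and 0 lower, with a median of 2.80, beside the same 35.6% of all genes called higher. Irf8, a myeloid transcription factor, had a log2 difference of 5.23 and B2m, the light chain of MHC class I, one of 3.66.

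No member was called by Rag2 genotype with edgeR in any cell type. With sex as a covariate and adjustment over all genes, 0 of 40 members tested were called in oligodendrocytes, 0 of 41 in OPCs, 0 of 40 in astrocytes and 0 of 41 in microglia. Over all genes 0% were called in oligodendrocytes, 0.00592% in OPCs, 0.00679% for astrocytes and 0.00667% for microglia. DESeq2 on all genes called 1 member in oligodendrocytes, where it called 0.75% of all genes, and 0 members in each of the other cell types. The median log2 fold change of the members (Rag2-/- against control) was 0.15 for oligodendrocytes, -0.02 for OPCs, -0.03 for astrocytes and -0.04 for microglia. The summed level of the 41 members was 1102 CPM in control and 1150 CPM in Rag2-/- oligodendrocytes, 1283 and 1282 in OPCs, 1214 and 1191 in astrocytes, and 1959 and 1863 in microglia.

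**Figure D4:**
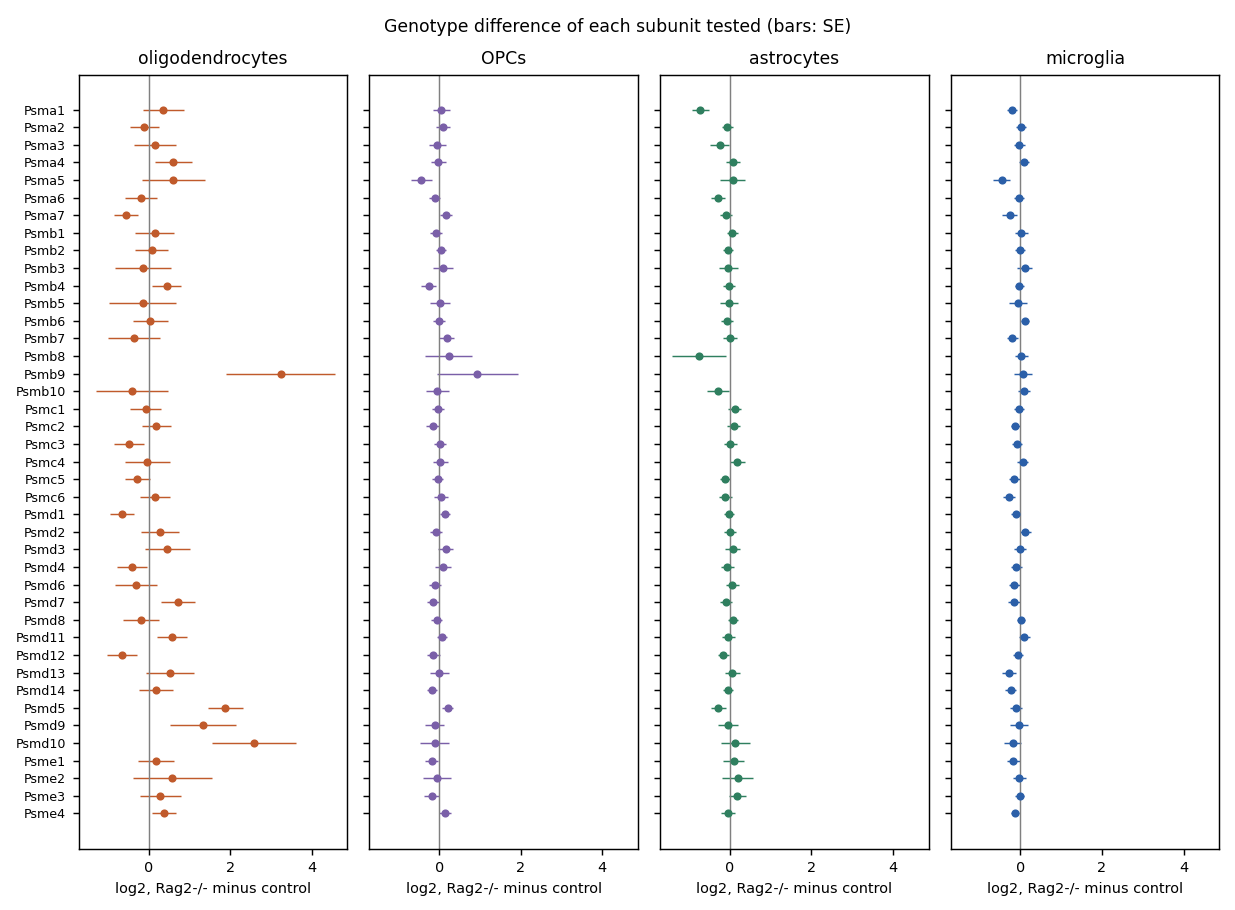
Log2 fold change of each member between Rag2-/- and control (horizontal axis, bars of 1 standard error), in 4 panels for the cell types on a shared axis. Most members lie close to 0 in OPCs, astrocytes and microglia and scatter more widely in oligodendrocytes, where Psmb9, Psmd10 and Psmd5 are farthest to the right.

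The inducible subunits of microglia overlapped between the genotypes. Psmb8 ranged from 23.9 to 33.4 CPM in 6 control libraries (median 28.4) and from 20.2 to 39.5 in 6 Rag2-/- libraries (median 28.8). Psmb9 ranged from 15.1 to 31.6 CPM (median 22.9) and from 12.7 to 43.3 (median 23.4), and Psmb10 from 21.6 to 33.8 CPM (median 27.8) and from 24.9 to 34.5 (median 27.1). For Psme1 the ranges were 60.9 to 125 CPM (median 96.7) and 59.9 to 116 CPM (median 84.6), and for Psme2 they were 12.4 to 19.8 CPM (median 14.6) and 14.1 to 16.1 CPM (median 14.6).

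Psmd5, the S5b chaperone that binds ATPases of the 19S base during assembly, had the smallest p of the members in oligodendrocytes. In control oligodendrocytes of pairs 1, 3, 5 and 6 it stood at 14.9, 17.4, 5.88 and 12.6 CPM, from 120, 135, 31 and 82 counts. In Rag2-/- oligodendrocytes of the same pairs it stood at 74.8, 32, 28.5 and 20.4 CPM, from 697, 250, 181 and 146 counts. The groups did not overlap and the Rag2-/- library was higher in 4 of 4 pairs, with the widest gap in pair 1. Psmb9, Psmd9, Psme1 and Psme4 were also higher in 4 of 4 pairs of oligodendrocytes, and Psma7, Psmd1 and Psmd12 were lower in 4 of 4. The share of all genes that separate or agree over pairs in this way was not counted, here or below. The log2 fold change was 1.88 (SE 0.43), with an unadjusted p of 0.000987 and an adjusted p of 0.998 in edgeR. DESeq2 on all genes, which is the tool of the study, called it with a log2 fold change of 1.89 and an adjusted p of 0.000781, as 1 member among the 0.75% of genes it called, and DESeq2 on the genes past the edgeR filter gave an adjusted p of 0.0238. Psmd5 lies on chromosome 2 at 34739746 to 34764980, on the minus strand, and 10.8% of its exonic length lies opposite other genes.

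In the other cell types Psmd5 overlapped between the genotypes. It ranged from 26.7 to 38.8 CPM in control and from 32.3 to 41.4 CPM in Rag2-/- OPCs (log2 fold change 0.21, SE 0.13), and from 19.4 to 28.9 CPM in control and 13.9 to 26.8 CPM in Rag2-/- astrocytes (-0.28, SE 0.18). In microglia it ranged from 23.1 to 38.7 CPM in control and from 24.7 to 36.8 CPM in Rag2-/- libraries. Within pairs the Rag2-/- library was higher in 5 of 5 pairs of OPCs, 1 of 6 of astrocytes and 3 of 6 of microglia. Psme4 was also higher in 5 of 5 pairs of OPCs. Every control oligodendrocyte library lay below every OPC and microglia library, and 3 of the 4 Rag2-/- oligodendrocyte libraries did not.

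Whether genotype acted on a member to a different degree in the 4 cell types was asked in 1 edgeR fit over all 43 libraries. Psmd5 was the 1 member called (edgeR adjusted p = 0.0264), against 0.248% of all genes. With the mouse as a block the adjusted p was 0.155 and 0 members were called, so the call did not hold once the cell types of a mouse were tied together. It was also lost without control mouse 5 (0.110), control mouse 6 (0.0775), Rag2-/- mouse 1 (0.123) or Rag2-/- mouse 4 (0.0501), each leaving 0 members called. Without Rag2-/- mouse 3 Psmd10 joined it, for 2 members called.

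**Figure D5:**
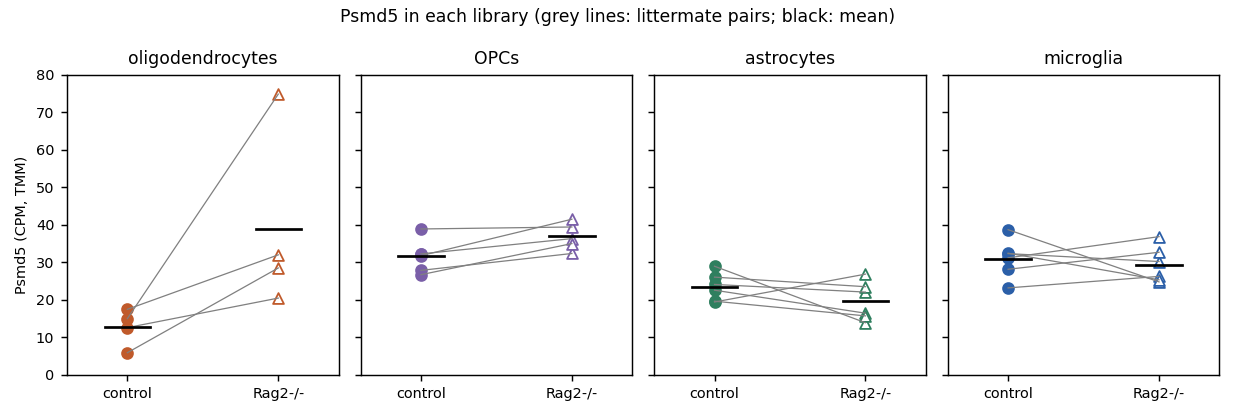
Level of Psmd5 in CPM (vertical axis) in control and Rag2-/- libraries of each littermate pair, joined by lines, in 4 panels for the cell types. Lines go up from control to Rag2-/- in 4 of 4 pairs of oligodendrocytes and, by less, in 5 of 5 pairs of OPCs, and go both ways in astrocytes and microglia.

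The other members with a small p in oligodendrocytes rested on few counts. Psmd10 had 22, 10, 15 and 4 counts in the controls and 189, 3, 78 and 126 counts in the Rag2-/- libraries of pairs 1, 3, 5 and 6, or 2.74, 1.29, 2.84 and 0.613 CPM against 20.3, 0.383, 12.3 and 17.6 CPM. It was higher in 3 of 4 pairs, and in pair 3 the Rag2-/- library was lowest. The log2 fold change was 2.59 (SE 1.02; edgeR adjusted p = 0.998), and it was 0.26 without the Rag2-/- library of pair 1. Psmb9 had 2, 6, 0 and 4 counts in the controls and 14, 31, 59 and 14 counts in the Rag2-/- libraries, or 0.249, 0.775, 0 and 0.613 CPM against 1.5, 3.96, 9.28 and 1.96 CPM. The groups did not overlap, a separation whose share over all genes was not counted. The log2 fold change was 3.24 (SE 1.34, edgeR adjusted p = 0.998). Psmb8, its neighbour in the genome, had the opposite order, with 22, 7, 2 and 72 counts (2.74, 0.904, 0.379 and 11 CPM) in the controls and 0, 9, 0 and 0 counts (1.15 CPM in pair 3) in the Rag2-/- libraries. The counts of Psmb8 in oligodendrocytes were below the minimum of the edgeR filter, so it has no p in the main fit. DESeq2 on all genes did not call it. A count of 0 allows up to 3 counts, and this floor covers counting error only.

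The summed level of the 8 microglia markers ran from 264 to 1064 CPM in control oligodendrocytes (median 502) and from 441 to 972 CPM in Rag2-/- oligodendrocytes (median 506). The neuron markers ran from 616 to 3024 CPM (median 1644) and from 587 to 2253 CPM (median 1697). The OPC markers ran from 438 to 1209 CPM (median 705) and from 399 to 1572 CPM (median 936), and OPCs had the highest mean level of Psmd5 of the 4 cell types, at 34.0 CPM. The T and B lymphocyte markers ran from 2.30 to 7.60 CPM in controls, with 3 of 8 genes at 0, and from 0 to 2.30 CPM in Rag2-/- libraries, with 5 of 8 genes at 0. The part of these in the levels of Psmd5, Psmb8, Psmb9 and Psmd10 was not tested.

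Of the remaining cell types, astrocytes held the member of smallest p, Psma1 of the alpha ring. It ranged from 18.2 to 55.6 CPM in controls (median 27.7) and from 12.3 to 27.2 CPM in Rag2-/- astrocytes (median 20.6), with overlap, and had a log2 fold change of -0.72 (SE 0.21, edgeR unadjusted p = 0.00278, adjusted p = 1.00). Psma6, also of the alpha ring, had -0.30 (SE 0.17), from 53.2 to 72.8 CPM in controls and 29.8 to 73.0 CPM in Rag2-/- libraries. Neither passed the test after adjustment.

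In microglia Psma5 of the alpha ring ranged from 6.81 to 11 CPM in controls and from 5.54 to 7.46 CPM in Rag2-/- libraries (log2 fold change -0.46, SE 0.20, edgeR unadjusted p = 0.0339), and was lower in Rag2-/- in 6 of 6 pairs. Psmc6, an ATPase, had -0.28 (SE 0.14), from 33.3 to 55.7 CPM and 27.7 to 42.2 CPM, and Psmd14 had -0.24 (SE 0.14), from 33.9 to 59.5 CPM and 28.9 to 40.9 CPM. All 3 overlapped between the genotypes. In OPCs Psma5 had -0.44 (SE 0.25), from 5.99 to 10.3 CPM in controls and 4.11 to 8.06 CPM in Rag2-/- libraries. It was lower in 5 of 5 pairs, as were Psma6, Psmc2 and Psme1. Psmb4 had -0.26 (SE 0.18), from 37.2 to 82.1 CPM and 44.8 to 72.1 CPM. Exact copies elsewhere in the genome covered 46.9% of the windows of Psma5. With edgeR none of the genes for assembly, regulation, interferon response or peptide loading was called by genotype in any cell type. The same tests called 0% of all genes for oligodendrocytes and at most 0.00679% for another cell type, so this says little about these lists. Their DESeq2 results are not given here.

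No member was called by sex with edgeR in any cell type, against 0.0362% of all genes in oligodendrocytes, 0.0296% for OPCs, 0.0407% for astrocytes and 0.0467% for microglia. DESeq2 on all genes called Psme3 in oligodendrocytes (log2 difference of -1.95 between females and males, adjusted p = 0.0181), among 1.78% of all genes. Psme3 stood at 7.77, 4.09 and 20.2 CPM in the 3 libraries of females and at 30.6, 39.9, 46.6, 39.2 and 49.0 CPM in the 5 libraries of males. The values 7.77 and 4.09 came from the littermates of pair 5, and 20.2 from the Rag2-/- mouse of pair 6. Sex and pair therefore cannot be fully told apart here. The sexes did not overlap, a separation whose share over all genes was not counted. The edgeR fit gave -1.94 (SE 0.55) with an adjusted p of 0.505.

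Members varied together only weakly within a cell type. Members with a mean count of at least 10 in the cell type were used, 39 in astrocytes and 41 in each other type. Over all their pairs, the median Pearson correlation of log2(CPM + 0.5) across libraries was 0.186 in OPCs (n = 11), 0.180 in microglia (n = 12), 0.120 in astrocytes (n = 12) and 0.057 in oligodendrocytes (n = 8). The share of pairs above 0 was 70.5%, 68.1%, 64.8% and 55.2%. The libraries share depth and composition, so these values are descriptions.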

How the data were processed

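RNA from immunopanned cells was amplified with the Ovation V2 kit, without molecular identifiers. The authors aligned reads to GRCm39 with STAR 2.7.8a and counted them per gene with HTSeq; the deposited values are raw counts of reads per gene, with no correction. The counting mode and strand setting are not given in the sources used here. Reads counted on no gene (33.5% to 52.0% of a library) entered neither library sizes nor tests.

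Counts were tested in R 4.3.3 with edgeR 4.0.16 (TMM, filterByExpr with a minimum count of 10 and a total of 15, glmQLFit and glmQLFTest), per cell type with terms for sex and genotype, and jointly over 43 libraries for cell type and for genotype by cell type, with Benjamini-Hochberg adjustment over all genes and a threshold of 0.05. The scripts were tested on simulated data. Alternatives were DESeq2 1.42.0, its size factors in edgeR, no filter, a mean count of at least 10, mitochondrially encoded genes left out, no sex term, heterozygous controls alone, 1 genotype alone, the pair or mouse as a block, each library or mouse left out, and other lengths and totals. Nuclear-encoded totals without TMM, and shares of the microglia level with each library left out, were added after the data were seen.

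The labels number littermate pairs and 1 mouse gave all its cell types, so the numbers pair the samples. Deviations from group means correlated on average by 0.111 within pairs of oligodendrocytes, 0.0889 of OPCs, 0.135 of astrocytes and 0.0865 of microglia, against -0.036, -0.0176, -0.026 and -0.0176 between pairs.

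The members and lists were chosen with earlier results of these data known. Values per library were given for Psmb5 to Psmb10, Psme1, Psme2 and Psmd5, for members called by genotype or sex in edgeR or DESeq2, and for up to 3 members of smallest p in each genotype comparison. For each cell type the 3 called members of largest difference in either direction were given as means. Other members were named with their differences. The result of 1 gene outside the members is not reported here. Names and GRCm39 positions came from GENCODE M39. Python 3.11.15 with pandas 2.3.3, numpy 2.4.6 and matplotlib 3.10.9 assembled values and plots.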

Additional observations from a re-analysis of the deposited data

Results flagged for a closer look

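The genotype effect on Psmd5 differed among the cell types in the joint edgeR fit (adjusted p = 0.0264). The call was lost with the mouse as a block (adjusted p = 0.155, 0 members called) and without any 1 of 4 mice (up to 0.123). The effect was largest in oligodendrocytes, at a log2 fold change of 1.88, beside 0.21 in OPCs and -0.28 in astrocytes.

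In 3 of 90 groups of 4 to 10 libraries tested, 1 library lay far from the rest, where chance gives about 1 in 20. Psmb8 stood at 1.15 CPM in the Rag2-/- oligodendrocytes of pair 3 and at 0 in the other 3 Rag2-/- libraries, a difference of 9 counts. Beside libraries at 0 any count above 0 would have stood apart, so this one says little. Psmb6 stood at 65.8 CPM in the Rag2-/- astrocytes of pair 2, above the next Rag2-/- library at 47.7 CPM. Psmd14 stood at 59.5 CPM in the control microglia of pair 1, above the next control at 41.5 CPM.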

How the results depend on the processing

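Members called higher in microglia numbered 24 to 35 under the alternatives run, against 32. DESeq2, on all genes or on those past the filter, called 1 member by genotype and 1 by sex in oligodendrocytes, where edgeR called 0. For genotype by cell type, 4 members were called with no filter, 3 with DESeq2 in either form and 0 with the replicate block by mouse, and 0 to 2 with each mouse left out; the block by pair or mouse changed no other call of genotype or sex, and moved the OPC count of higher members to 5. In OPCs 1 member was called higher with DESeq2 size factors, without mitochondrially encoded genes and with DESeq2, 0 in Rag2-/- libraries alone, and 0 to 2 with each mouse left out, and 3 were called lower in controls alone, 10 and 11 with DESeq2. In astrocytes 2 were called higher with DESeq2 size factors, a mean count of at least 10, mitochondrially encoded genes left out, the block, DESeq2 and nuclear-encoded totals, 0 with no filter and in controls alone, and 0 to 2 with each mouse left out, and 9 were called lower with DESeq2 size factors or mitochondrially encoded genes left out, 8 with no filter, 6 in controls alone, 7 in Rag2-/- libraries alone, and 9 to 15 with each mouse left out. Nuclear-encoded totals without TMM gave 30 lower in oligodendrocytes, 23 higher and 0 lower in OPCs, and turned Psmc2 in OPCs to 0.0261.

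With the longest coding transcript as length, the Psmb8 to Psmb5 ratio became 0.321 for OPCs, 0.110 for astrocytes and 3.32 for microglia, that of Psmb9 to Psmb6 0.0191 in astrocytes and 0.294 in microglia, and that of Psmb10 to Psmb7 0.558, 0.519 and 1.24. The summed level in oligodendrocytes, OPCs, astrocytes and microglia was 1894, 3275, 2466 and 3013 with that length, 286, 941, 623 and 1565 with mitochondrially encoded genes in the sum, and 252, 288, 277 and 450 with TMM library sizes. Causes beyond the construction of each alternative were not tested. Members with few counts, such as Psmb8, Psmb9 and Psmd10 in oligodendrocytes, limit what this depth can show there.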
